A study of Mus musculus with 2 samples.

Results

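In CT26 tumors, 1425 of the 13939 cells kept from 2 single-cell RNA libraries carried transcripts of *Ogn*, *Aspn*, *Omd* and *Apod* without a collagen-high or an immune profile. These cells are called Ogn and Aspn cells here. They were chosen by their RNA counts. A cell was taken if it had no unique molecular identifier (UMI, 1 captured RNA molecule) of *Ptprc*, which encodes CD45, and at least 4 UMIs of *Ogn*, *Aspn*, *Omd* and *Apod* together. That sum also had to exceed the UMIs of *Krt20*, *Klk10*, *Nppb*, *Esm1*, *Btc* and *Prkg2*, 6 genes of another tumor cell state. Cells were left out if, per 10000 of their UMIs, they had 20 or more of the collagens *Col1a1*, *Col1a2* and *Col3a1*, 20 or more of the macrophage gene *Lyz2*, or 500 or more of the hemoglobin genes *Hba-a1* and *Hbb-bs*. The levels of all these genes are therefore a description of the choice. Of the Ogn and Aspn cells, 377 were UT and 1048 BUP-treated.

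CT26 is a colon carcinoma line of the BALB/c mouse, and the tumors were subcutaneous grafts in male BALB/c hosts with a complete immune system. UT mice received no treatment, and BUP-treated mice received BUP-Gel, a hydrogel loaded with bupivacaine, a local anesthetic that blocks voltage-gated sodium channels. Each library pooled live cells of 3 tumors, with sorted CD45+ and CD45- cells mixed at 4 parts to 1 part by the labels, while the study's methods give a different mixture. There was 1 library per group and no gel without drug among these libraries, so drug, gel, animal and library cannot be told apart, and no test between groups was possible.

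Osteoglycin (*Ogn*), asporin (*Aspn*) and osteomodulin (*Omd*) are small leucine-rich proteoglycans, secreted proteins with a horseshoe-shaped core that bind collagen fibrils or growth factors. They are known mostly from connective tissue, bone and tooth, and asporin binds transforming growth factor beta (TGF-beta). Apolipoprotein D (*Apod*) is a secreted lipocalin that carries small lipids and is common in connective tissue fibroblasts and glia.

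*Ogn*, *Aspn* and *Omd* lie side by side on the same strand of chromosome 13 of the mouse genome GRCm39. *Aspn* spans chr13:49697609-49721057, *Omd* chr13:49735938-49746298 and *Ogn* chr13:49761349-49780412, all on the plus strand, while *Apod* lies elsewhere, at chr16:31115010-31135355 on the minus strand. The promoters of the 3 neighbors are shown because these genes define the cells, each from 250 bases before the start of the canonical transcript to 50 bases into it, read from GRCm39 with the GENCODE M39 annotation. Capitals mark the letters TATAAA on either strand.

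Ogn (chr13:49761099-49761398, plus strand): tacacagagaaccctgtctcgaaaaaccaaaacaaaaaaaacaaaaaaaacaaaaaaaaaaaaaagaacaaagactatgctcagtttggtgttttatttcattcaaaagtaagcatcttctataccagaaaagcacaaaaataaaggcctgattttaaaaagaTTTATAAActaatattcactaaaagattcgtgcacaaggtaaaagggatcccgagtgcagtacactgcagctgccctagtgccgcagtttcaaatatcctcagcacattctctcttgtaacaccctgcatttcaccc
Aspn (chr13:49697669-49697968, plus strand): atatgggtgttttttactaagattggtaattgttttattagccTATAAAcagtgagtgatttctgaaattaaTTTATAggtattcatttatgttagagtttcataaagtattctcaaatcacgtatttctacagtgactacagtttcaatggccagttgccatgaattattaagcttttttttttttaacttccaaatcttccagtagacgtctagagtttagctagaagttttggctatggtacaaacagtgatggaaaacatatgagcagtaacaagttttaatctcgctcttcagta
Omd (chr13:49735688-49735987, plus strand): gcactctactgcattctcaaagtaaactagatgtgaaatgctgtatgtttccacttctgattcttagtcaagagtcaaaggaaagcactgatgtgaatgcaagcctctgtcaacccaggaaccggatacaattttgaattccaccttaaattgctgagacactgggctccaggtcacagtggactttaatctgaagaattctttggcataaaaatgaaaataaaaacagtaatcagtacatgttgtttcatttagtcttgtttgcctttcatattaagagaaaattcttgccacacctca

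All 3 stretches were poor in G and C, at 35.3% for *Ogn*, 31.0% for *Aspn* and 37.7% for *Omd*, beside a median of 54.3% over 21418 promoters of protein-coding genes, of which the lowest 10% lay at or under 40.3%. TATAAA was found in 13.2% of all promoters on either strand. It occurred in *Ogn* as a pair of overlapping copies on opposite strands, 87 and 85 bases before the start, and in *Aspn* 207 and 178 bases before it, and no copy was found in *Omd*. The letters TGANTCA, bound by the AP-1 factors, were in 7.13% of all promoters and in none of these 3.

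The whole cluster lies inside *Cenpp*, a centromere protein gene on the opposite strand (chr13:49617492-49806396). In the Ogn and Aspn cells *Cenpp* had 20.8 CPM in UT and 16.5 in BUP. CPM, the level used throughout, is the number of UMIs of a gene per 1000000 UMIs of the cells summed. *Ecm2*, a further leucine-rich gene inside *Cenpp*, had 1.88 and 1.14 CPM. The flanking genes *Ippk*, *Bicd2*, *Nol8* and *Iars* had between 9.38 and 36.5 CPM. Exons of *Cenpp* share 1797 bases with the span of *Aspn* and 1155 with that of *Ogn* on the other strand, so the split of reads there depends on strand.

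**Figure D1:**
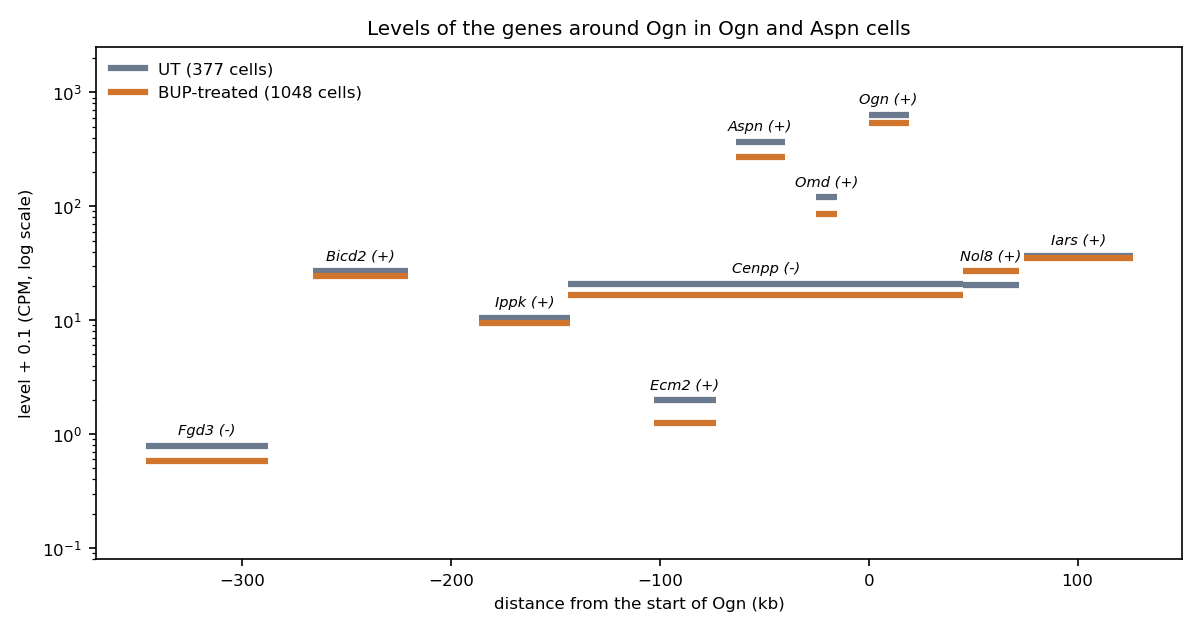
Level of each gene around *Ogn* in the 377 UT and 1048 BUP-treated Ogn and Aspn cells. The horizontal axis is the distance from the start of *Ogn* in kb, and each bar spans 1 gene with its strand in brackets. The vertical axis is the level in CPM plus 0.1 on a log scale. *Ogn*, *Aspn* and *Omd* stand above 80 CPM in both libraries, while *Ecm2*, *Cenpp* and the flanking genes stay under 40 CPM.

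*Ogn* was the marker found in most cells. It had at least 1 UMI in 93.6% of the UT and 93.3% of the BUP-treated Ogn and Aspn cells. *Aspn* was seen in 70.3% and 68.4%, *Omd* in 62.9% and 54.4%, and *Apod* in 79.0% and 72.5%. All 4 genes were present together in 144 UT cells (38.2%) and 297 BUP-treated cells (28.3%), and 22 and 86 cells had only 1 of them. The sum of the 4 genes had a median of 17 UMIs in UT and 15 in BUP-treated cells and reached 401 and 137.

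The limit of the rule did not fall in a gap. Cells with exactly 3 UMIs of the 4 genes numbered 16 in UT and 63 in BUP, and those with exactly 4 numbered 13 and 64. *Prrx1*, a mesenchymal transcription factor that the rule did not use, had 451 and 329 CPM just outside the limit and 455 and 277 just inside. Decorin (*Dcn*) had 1187 and 690 CPM outside and 1993 and 543 inside.

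The Ogn and Aspn cells made up 5.26% of the 7163 UT cells (95% binomial interval 4.76 to 5.81%) and 15.5% of the 6776 BUP-treated cells (14.6 to 16.3%). Among cells with no *Ptprc* UMI they were 20.3% of 1853 (18.5 to 22.3%) and 35.3% of 2969 (33.6 to 37.0%). These intervals and all others given here are exact and cover counting error only. The mixing of sorted CD45+ and CD45- cells sets the first pair of shares in part, and the sort itself can shape both. The median Ogn and Aspn cell held 14348 UMIs in UT and 14656 in BUP, and 4158 and 4127 genes, so the cells of both libraries were of like depth.

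Over both libraries 14777 barcodes were deposited, with 83228442 UT and 89918925 BUP UMIs. Barcodes with 20% or more mitochondrial UMIs were left out, 393 from UT and 445 from BUP. The libraries shared 76 barcodes, among them 3 UT and 11 BUP-treated Ogn and Aspn cells, and no barcode was an Ogn and Aspn cell in both.

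The Ogn and Aspn cells were set beside 3 other sets of each library. The 476 UT and 742 BUP-treated Krt20 tumor cells were taken by the mirrored rule, with the 6 *Krt20* state genes in the place of the 4 markers. Collagen-high cells (59 and 148) had no *Ptprc* UMI and reached the collagen limit, and cells with a *Ptprc* UMI (5310 and 3807) stand for immune cells. Krt20 tumor cells were deeper, with medians of 29787 and 27619 UMIs, collagen-high cells were similar, with 15889 and 16513, and immune cells shallower, with 8323 and 8452.

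The rule asked for the markers in Ogn and Aspn cells, and the mirrored rule held them below the *Krt20* state genes in Krt20 tumor cells. The contrast of these sets, and the share with *Ogn* after thinning, thus describe the choice. Collagen-high cells were taken without a marker limit and carried the markers at levels of the same order. *Ogn* had 633 CPM in UT and 542 in BUP-treated Ogn and Aspn cells, against 19.7 and 29.5 in Krt20 tumor cells, 503 and 292 in collagen-high cells and 16.4 and 23.3 in immune cells. Immune cells should lack *Ogn*, so their level serves as background. *Aspn* had 364 and 268 CPM, against 3.91 and 5.26 in Krt20 tumor cells and 419 and 239 in collagen-high cells. *Apod* had 459 and 331 CPM, against 9.20 and 9.15 in Krt20 tumor cells and 287 and 191 in collagen-high cells. With 2000 UMIs drawn at random from every cell, *Ogn* was still present in 58.8% of Ogn and Aspn cells in UT and 55.7% in BUP, and in 1.08% and 1.91% of immune cells.

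Genes of the host and of the CT26 line placed the Ogn and Aspn cells with the Krt20 tumor cells. Cells of the male host express the Y-linked genes *Uty*, *Kdm5d*, *Ddx3y* and *Eif2s3y*. These 4 summed to 1.36 CPM in UT and 0.42 in BUP-treated Ogn and Aspn cells, against 0.98 and 0.59 in Krt20 tumor cells, 40.03 and 61.5 in collagen-high cells and 138 and 154 in immune cells. *Cdkn2a*, which encodes the cell cycle inhibitor p16 and is known to be deleted in CT26, had 0.17 and 0.12 CPM, against 13.01 and 7.78 in collagen-high cells. By these genes the label of tumor cells held for the set as a whole.

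Mesenchymal genes were high and epithelial genes near 0. *Vim* (vimentin) had 6376 CPM in UT and 5500 in BUP, and the mesenchymal factors *Prrx1* and *Twist1* had 424 and 422, and 204 and 215 CPM. Fibronectin (*Fn1*) had 1848 and 1887 CPM. The 14 epithelial genes looked up summed to 7.16 and 11.4 CPM, of which *Krt18* gave 4.94 and 8.66, and 7 had no UMI in UT and 7 none in BUP, *Epcam* and *Cdh1* among both. A count of 0 over these cells allows up to 0.51 CPM in UT and 0.18 in BUP.

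Genes of activated fibroblasts set the collagen-high cells apart. Of the 20 fibroblast and stromal genes looked up, 18 were abundant enough to count against collagen-high cells. Of these, 16 were lower by 2-fold or more in the Ogn and Aspn cells of both libraries, beside 4.66% of the 7676 genes counted. The exceptions were *Pdgfrb* and *Cd34*. All 13 countable matrix collagens were lower as well, of which 3 were used by the rule. Periostin (*Postn*) had 0.34 and 0.12 CPM in Ogn and Aspn cells against 483 and 510 in collagen-high cells, smooth muscle actin (*Acta2*) 0.34 and 0.06 against 96.1 and 171, and the gelatinase *Mmp2* 0.68 and 0.60 against 538 and 1264. *Thy1*, a surface marker of fibroblasts, had 1.70 and 0.78 CPM against 455 and 920. The receptors *Pdgfra* and *Pdgfrb* were present at 39.04 and 34.2, and 65.6 and 69.2 CPM.

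**Figure D2:**
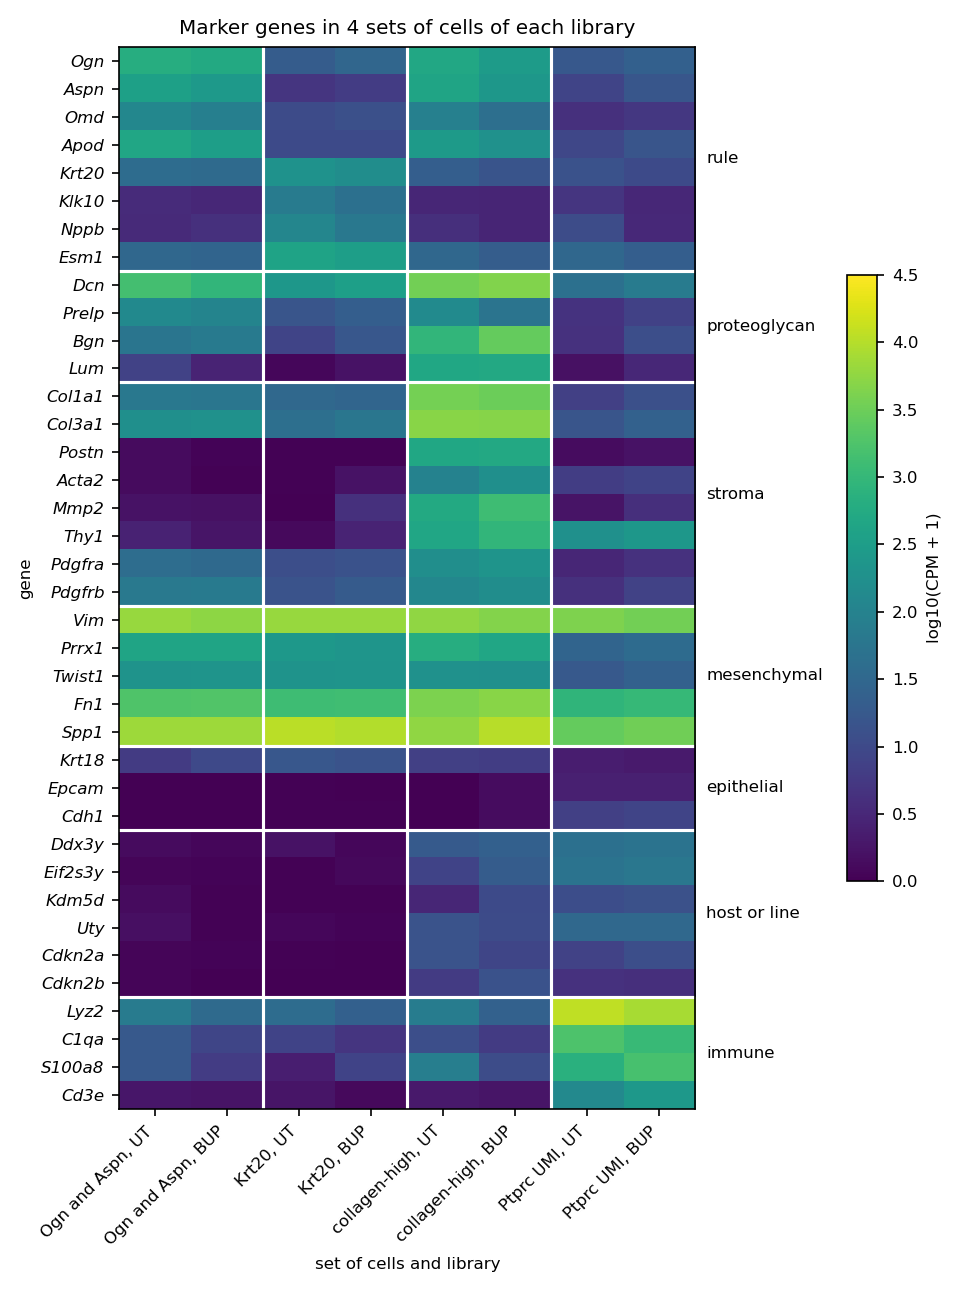
Heat map of marker genes (rows, grouped at the right by kind) in 4 sets of cells of the UT and BUP libraries (columns), colored by log10 of CPM plus 1. Besides the top block, the rule also used *Col1a1*, *Col3a1* and *Lyz2*. The Ogn and Aspn columns are bright for *Ogn* (633 and 542 CPM), *Dcn* and *Vim* and dark for *Postn*, *Epcam* and the Y-linked genes, and the collagen-high columns are bright for the stroma block.

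Markers of other cell types were low. Endothelial genes summed to 54.4 CPM in UT and 49.9 in BUP, nearly all of it *Tek*, at 52.7 and 47.1, and pericyte genes summed to 1.36 and 1.32. T and NK cell genes summed to 8.18 and 5.11 CPM, against 1303 and 1868 in immune cells. All 8 macrophage genes were detected, with a sum of 123 and 59.5 CPM against 17390 and 11814 in immune cells, and all 6 neutrophil genes, with 86.9 and 21.5 against 2968 and 5611. *Lyz2* had at least 1 UMI in 63.9% of UT and 38.1% of BUP-treated Ogn and Aspn cells. Macrophage and neutrophil RNA was thus higher in the UT cells, and its part in the comparisons with BUP was not tested.

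Although the 3 proteoglycans are known from bone, the skeletal program was largely missing. Of 14 skeletal and cartilage genes, 8 had no UMI in either library, among them the osteoblast factor *Sp7*, aggrecan (*Acan*) and osteocalcin (*Bglap*). Those above 20 CPM were *Spp1* (osteopontin), with 6987 and 6890 CPM and 10733 and 9762 in Krt20 tumor cells, *Runx2*, with 102 and 89.7, and *Sox9*, with 110 and 109. The other 11 genes were under 5 CPM in both libraries.

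Beyond the markers, decorin led the proteoglycans. *Dcn* had 1405 CPM in UT and 911 in BUP-treated Ogn and Aspn cells, between Krt20 tumor cells (235 and 343) and collagen-high cells (3528 and 4518). *Prelp*, which anchors basement membranes, had 135 and 107 CPM against 14.1 and 21.1 in Krt20 tumor cells. Biglycan (*Bgn*) had 56.1 and 68.2 CPM against 934 and 2784 in collagen-high cells. Lumican (*Lum*) had only 6.65 and 1.80 CPM against 479 and 527, and *Fmod*, *Kera*, *Epyc* and *Chad* had at most 0.12 CPM. Of the 17 genes of the family looked up, 6 were abundant enough to count against Krt20 tumor cells, and all 6 were higher by 2-fold or more in both libraries, beside 3.89% of the 7204 genes counted. This list holds the 3 proteoglycans of the rule.

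Counted by UMIs, without scaling by gene length, ferritin RNA led outside ribosomal and mitochondrial genes. Ferritin heavy chain (*Fth1*) had 17983 and 19873 CPM, against 5845 and 7275 in Krt20 tumor cells. Cystatin C (*Cst3*), a secreted inhibitor of cathepsins, had 4623 and 5294 CPM, against 809 and 1127. *Tpt1*, *Eef1a1*, *Def8*, *Vim*, *Malat1* and *S100a6* also belonged to this group, each above 4500 CPM in both libraries.

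The genes that varied with *Ogn* from cell to cell were sought next. Over the 4822 cells without a *Ptprc* UMI, the genes outside the rule nearest to *Ogn* were *Tmem176b* (Spearman's rho 0.68), *Tmem176a* (0.67), ceruloplasmin (*Cp*, 0.66), complement *C1ra* (0.63), *Pcolce* (0.63) and *Itgbl1* (0.62). Within the 1425 Ogn and Aspn cells the correlations were weak, with *Itgbl1* at 0.34, gelsolin (*Gsn*) at 0.28 and *Aspn* at 0.27. Cells share their library, and depth differs between them, so these are descriptions only.

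Against Krt20 tumor cells, 280 genes (3.89% of 7204) were higher by 2-fold or more in the Ogn and Aspn cells of both libraries and 335 (4.65%) were lower. Several of the leading genes encode secreted proteins. Angiotensinogen (*Agt*) had 75.7 and 87.2 CPM against 0.85 and 3.29, *Islr* 67.7 and 67.8 against 1.37 and 3.57, and haptoglobin (*Hp*) 208 and 301 against 10.4 and 29.5. Stromelysin 1 (*Mmp3*) had 89.7 and 100.1 CPM against 5.48 and 11.2, and the selenium carrier *Selenop* 101 and 126 against 7.31 and 15.4. *Dio2*, which activates thyroid hormone, had 31.2 and 34.1 against 1.89 and 2.88.

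Lower than in Krt20 tumor cells were, besides the genes of the rule, *Car6*, a secreted carbonic anhydrase, at 0.85 and 0.90 CPM against 62.4 and 31.6, and *Upp1*, which cleaves uridine, at 21.6 and 13.2 against 232 and 160. *Timp1*, an inhibitor of matrix proteases, had 232 and 193 CPM against 1216 and 974. Asparagine synthetase (*Asns*) had 47.9 and 48.1 against 257 and 188, and *Trib3*, another gene of the integrated stress response, 6.99 and 7.28 against 51.0 and 28.6.

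Cell cycle genes were lower as a group. All 15 genes of G2 and M phase that could be counted were lower by 2-fold or more in the Ogn and Aspn cells of both libraries, as were 11 of 14 genes of S phase. Over all 7204 genes counted, 4.65% were lower in this way. *Plk1*, a mitotic kinase, had 1.36 and 0.84 CPM against 21.2 and 18.9, and *Cdc20* 5.28 and 3.91 against 68.4 and 53.7. The proliferation marker *Mki67* had 16.9 and 7.46 CPM against 98.8 and 70.7. The rule asks for marker UMIs, and the subcluster led by cycling genes, described at the end, had the lowest marker sum, 454 CPM. The cycling share also fell when 8 or more marker UMIs were required. How far the rule sets this contrast was not tested.

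Thinning to 2000 UMIs removed the difference in depth. Then 10 of 374 UT Ogn and Aspn cells (2.67%, interval 1.29 to 4.86%) and 16 of 1047 BUP-treated cells (1.53%, 0.88 to 2.47%) held at least 2 UMIs of the G2 and M phase genes. The share was 28.1% of 474 and 21.9% of 741 Krt20 tumor cells and 3.51% of 57 and 2.74% of 146 collagen-high cells. Without thinning the Ogn and Aspn cells reached 23.1% and 15.7% and the Krt20 tumor cells 67.6% and 60.8%. The counting intervals of the Ogn and Aspn cells of both libraries overlapped after thinning. With the cells holding 2 or more such UMIs left out of both sets, 178 genes were higher and 154 lower than in Krt20 tumor cells, beside 280 and 335 with them.

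**Figure D3:**
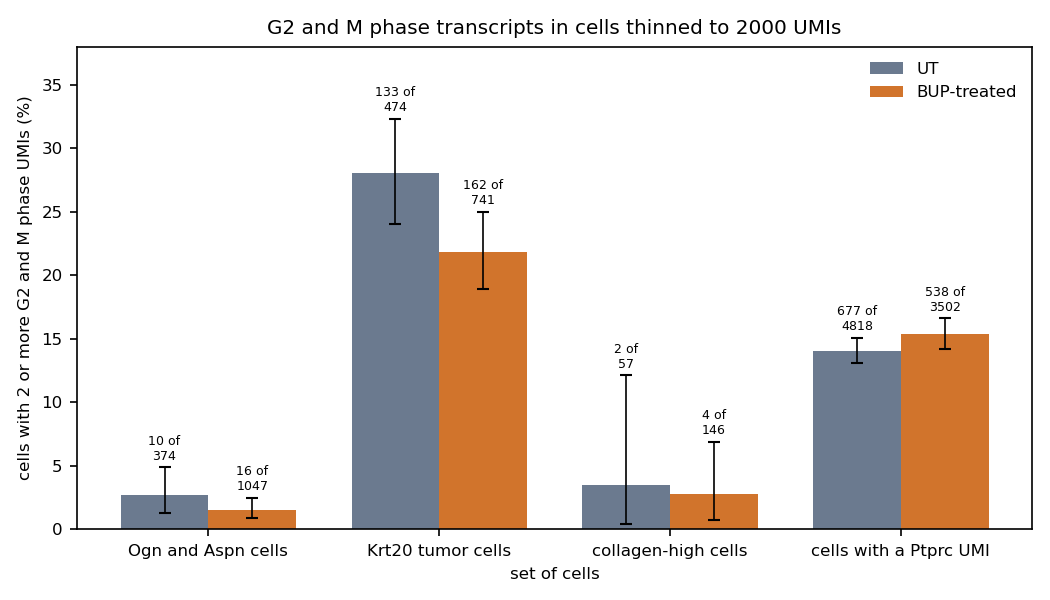
Share of cells with 2 or more UMIs of the G2 and M phase genes (vertical axis, %) after thinning to 2000 UMIs, in 4 sets of cells (horizontal axis) of the UT and BUP libraries. Bars start at 0, error bars are exact 95% binomial intervals, and the counts of cells stand above them. The Ogn and Aspn cells (2.67 and 1.53%) sit far under the Krt20 tumor cells (28.1 and 21.9%).

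Immediate early genes, which respond within minutes to growth factors and to handling of tissue, were higher than in Krt20 tumor cells for 7 of 10 genes counted. *Fos* had 2007 and 2081 CPM against 578 and 739, and the phosphatase *Dusp1* 1739 and 1558 against 461 and 582. In immune cells *Fos* had 2233 and 1671 CPM. Of the type I interferon response genes, 7 of 13 were higher, with a sum of 1255 and 1086 CPM against 740 and 725, and of the interferon gamma response genes 4 of 15. Over all 7204 genes counted, 3.89% were higher by 2-fold or more in both libraries. None of the 14 genes of MHC class I presentation differed by 2-fold in both libraries.

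Against collagen-high cells, 22 genes (0.287% of 7676) were higher by 2-fold or more in both libraries and 358 (4.66%) lower. *Agt*, with 9.01 and 14.0 CPM in collagen-high cells, was among the higher genes. The neutrophil chemokine *Cxcl1* had 844 and 1139 CPM against 271 and 344. *Aldh3a1*, an aldehyde dehydrogenase, had 129 and 86.2 against 26.0 and 28.0, the synuclein *Sncg* 50.8 and 44.6 against 11.0 and 12.8, and the transcription factor *Foxd1* 28.0 and 24.1 against 8.01 and 9.73.

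Several genes of the collagen-high cells were all but missing from the Ogn and Aspn cells. Tenascin C (*Tnc*) had 0.68 and 0.30 CPM against 1398 and 2193, the collagen *Col12a1* 0.51 and 0.96 against 925 and 1511, and the retinoic acid carrier *Crabp1* 0 and 0.18 against 810 and 680. Lysyl oxidase (*Lox*), which crosslinks collagen, had 0 and 0.06 CPM against 160 and 239, *Wnt5a* 0 and 0.06 against 76.0 and 125, and the chemokine *Cxcl12* 0 and 0.06 against 121 and 320.

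The remaining question is how the Ogn and Aspn cells of BUP-treated tumors differed from those of UT tumors. Most genes were close between the libraries. Of 6740 genes that reached 200 UMIs in both libraries together and 20 CPM in 1 library, 5564 (82.6%) lay within 0.25 of 0 on the log2 scale, and the median log2 ratio of BUP over UT was -0.07. Only 5 genes (0.0742%) were higher in BUP by 2-fold or more, and 7 (0.104%) were lower.

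Of these 12 genes, 9 had a lower level here than in immune cells, and 10 had 20% or more of their UMIs in 5 cells of the library where they were higher. The higher genes were the hemoglobin genes *Hba-a1*, *Hba-a2* and *Hbb-bs*, the acute phase gene *Saa3* and *Id3*. Hemoglobin UMIs of the BUP library came to 99.1% from 5 cells, and the hemoglobin genes are near-identical copies whose reads may be split. *Saa3* had 31.0 CPM in UT and 87.2 in BUP, with 43.6% of its BUP UMIs in 5 cells. The lower genes were *Il1b*, *S100a9*, *Cxcl2*, *Srgn*, *Fcer1g* and *Lyz2*, each far higher in immune cells, and *Clec3b*, with 30.5% of its UT UMIs in 5 cells.

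*Id3* was the 1 gene past 2-fold among the 4535 genes that met the rule for naming. It encodes an inhibitor of DNA binding that is induced by bone morphogenetic proteins (BMP). *Id3* had 79.9 CPM in UT and 187 in BUP-treated Ogn and Aspn cells, a log2 ratio of 1.23 (interval 1.09 to 1.37). After thinning, an *Id3* UMI was present in 12.8% of UT cells (9.62 to 16.7%) and 25.2% of BUP-treated cells (22.6 to 28.0%), beside 2.91% and 4.05% of immune cells. The related gene *Id1* had 54.4 CPM in UT and 88.2 in BUP (log2 ratio 0.70, 0.52 to 0.88). Its thinned shares were 8.82% (6.15 to 12.2%) and 13.7% (11.6 to 15.9%), with overlapping intervals.

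*Id3* was higher in BUP in other cells too. Krt20 tumor cells had a ratio of 1.06, at 12.9 and 27.0 CPM, and immune cells of 0.94, at 15.01 and 28.9 CPM. In collagen-high cells *Id3* was near even, with 100.1 and 116 CPM. *Id1* had ratios of 0.55 in Krt20 tumor cells, 1.22 in collagen-high cells and 0.27 in immune cells. Split by depth at 12230 and 17463 UMIs per cell, the shallow, middle and deep Ogn and Aspn cells had 100.1, 109 and 49.5 CPM in UT and 253, 225 and 140 in BUP, so *Id3* was higher in BUP at each depth.

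Other named genes with higher levels in BUP were *Pmepa1*, a feedback inhibitor of TGF-beta signaling, at 65.8 and 123 CPM (log2 ratio 0.90, 0.75 to 1.06), and *Angptl4*, a lipase inhibitor, at 20.1 and 35.8 (0.83, 0.54 to 1.13). The zinc finger factor *Snai1* had 39.4 and 57.9 CPM (0.56). Complement *C3* had 107 and 161 CPM (0.59) and *Hp* 208 and 301 (0.53). The small mitochondrial proteins *Mtln*, *Pigbos1* and *Tomm7* had log2 ratios of 0.65, 0.55 and 0.55, and *Phlda1* and *Pcgf2* both 0.51. *Pigbos1*, at 17.4 and 25.5 CPM, met the limit of 20 CPM through BUP alone. Most of these genes were higher in BUP in other sets too. In Krt20 tumor and collagen-high cells the log2 ratios were 0.92 and 1.19 for *Pmepa1*, 0.69 and 1.46 for *Angptl4* and 0.57 and 1.66 for *Snai1*. *Tomm7* had 0.45 and 0.62 there, with 0.52 in immune cells, while *Mtln* had 0.27 and -0.04. In Krt20 tumor cells *C3* and *Hp* had larger ratios, of 1.61 and 1.51, while in collagen-high cells they were -0.68 and -1.65.

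**Figure D4:**
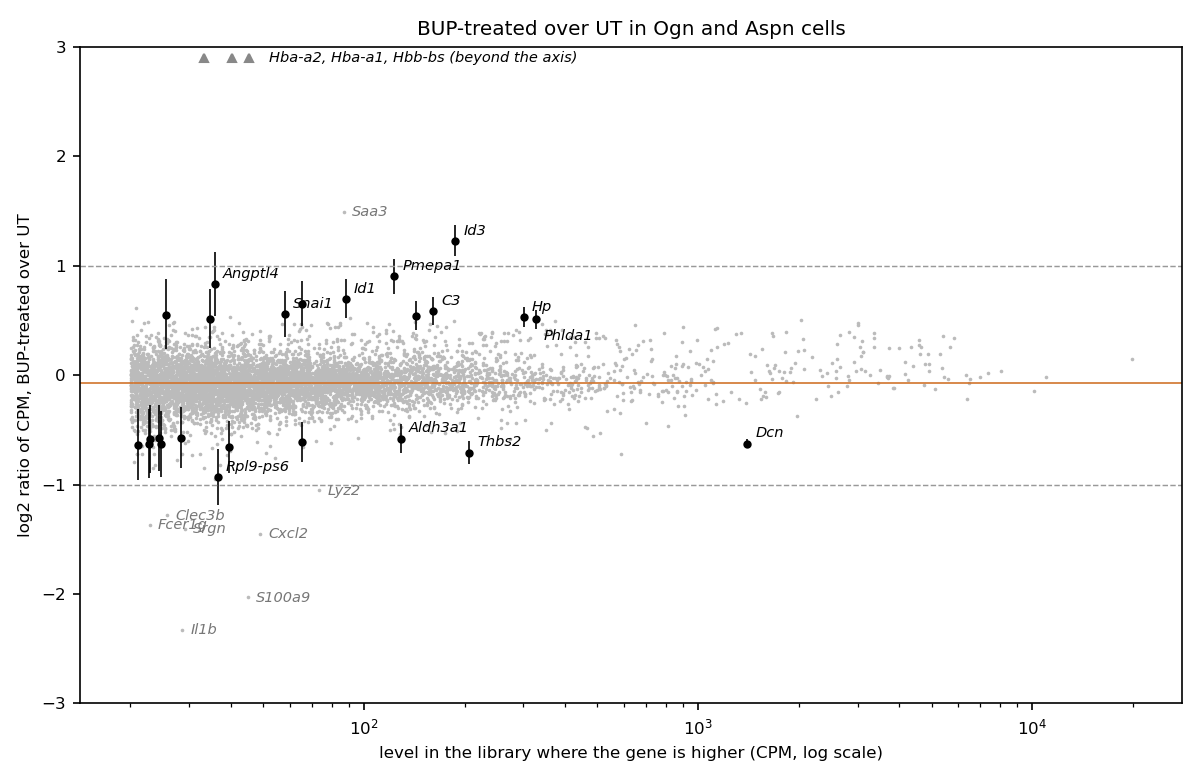
Log2 ratio of CPM of BUP-treated over UT Ogn and Aspn cells (vertical axis) against the level in the library where the gene is higher (horizontal axis, CPM on a log scale), for 6740 genes (gray points). Black points with exact 95% counting intervals are the 24 named genes, dashed lines mark 2-fold, and the orange line is the median of all genes, -0.07. *Id3* (1.23) is the only black point past 2-fold, 3 hemoglobin genes lie beyond the axis, and the gray labels under -1 are mostly genes of immune cells.

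Lower in BUP were *Thbs2*, a matrix protein that restrains vessel growth, at 206 and 126 CPM (log2 ratio -0.71, -0.81 to -0.60), *Dcn* at 1405 and 911 (-0.63, -0.66 to -0.59) and *Aldh3a1* at 129 and 86.2 (-0.58, -0.71 to -0.45). Another 7 were at most 40 CPM in UT, namely *Sorbs3* (-0.66), *Galnt11* (-0.64), *Disp1* (-0.63), *Snx25* (-0.63), *Phka2* (-0.59), *Dop1a* (-0.58) and *Itpr3* (-0.57). *Rpl9-ps6* (-0.93), at 36.5 and 19.1 CPM, also met the limit through UT alone. It has the symbol of a ribosomal pseudogene, although the annotation lists it as protein-coding, and what it shares with reads of *Rpl9* was not tested. *C130026I21Rik* had 65.3 and 42.7 CPM (-0.61). *Rpl9-ps6* was lower in BUP in the other sets too, at -0.87 in Krt20 tumor cells, -0.83 in collagen-high cells and -0.88 in immune cells. *Thbs2* had -0.44, -0.13 and -0.59 in these sets.

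The *Dcn* difference had the opposite sign in Krt20 tumor cells and collagen-high cells. *Dcn* had a log2 ratio of 0.54 in Krt20 tumor cells, 0.36 in collagen-high cells and 0.73 in immune cells, and *Aldh3a1* of 0.44, 0.11 and 0.28. In immune cells *Dcn* had only 43.9 and 72.6 CPM, with a UMI in 5.97% and 6.96% of cells, and its source there was not tested. In the Ogn and Aspn cells *Dcn* was lower in BUP at each depth, with 1830 and 1026 CPM in the shallow cells, 1729 and 1018 in the middle and 985 and 804 in the deep cells. The 4 markers themselves had ratios of -0.23 (*Ogn*), -0.44 (*Aspn*), -0.50 (*Omd*) and -0.47 (*Apod*), as a description of chosen cells. *Prelp* had -0.33 and *Bgn* 0.28.

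Gene lists were read by how many of their genes had a counting interval wholly above or below 0. Over all 6740 genes these shares were 8.16% above and 22.7% below, which already leans to lower levels in BUP. Of 9 countable TGF-beta and BMP target genes, 7 were above and 0 below, with a median log2 ratio of 0.32 beside -0.07 for all genes. Besides *Id3* and *Id1* these were *Skil* (0.36), *Smad7* (0.32), *Id2* (0.32), *Ccn1* (0.19, at 1253 and 1429 CPM) and *Ccn2* (0.19). *Thbs1*, also a target, had a ratio of 0.18 with an interval that held 0. The sum of the target list was higher in BUP in every set, at 1764 and 2130 CPM here and 652 and 912 in Krt20 tumor cells. Collagen-high cells had 2183 (2093 to 2277) and 2248 CPM (2190 to 2306), with overlapping intervals, and immune cells 2158 and 2309. *Ccn1* made up most of the sum in Ogn and Aspn cells.

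The receptors and ligands of the same pathway showed no such lean. Of 12 receptors and mediators, 1 was above and 2 below, with a median of -0.09. *Tgfbr3*, the co-receptor betaglycan, had 420 and 369 CPM (-0.19), and *Bmpr2*, a receptor of BMP, 108 and 120 (0.16). Of 7 ligands and inhibitors, 2 were above and 3 below. The BMP inhibitor *Grem1* had 63.2 and 64.4 CPM, follistatin (*Fst*) 43.5 and 31.3 (-0.47), and *Bmp4* and *Nog* had no UMI in either library.

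Interferon response genes leaned lower in BUP. Of 12 type I interferon response genes, 9 had intervals below 0 and 0 above, with a median of -0.29. All 12 reached 20 CPM in UT and 9 in BUP. The direction of the rest, *Ifit1* and *Ifi44* among them, was fixed by the limit. *Ifit1* had 27.6 and 16.2 CPM (-0.77), *Ifi44* 30.7 and 18.5 (-0.73) and *Isg15* 108 and 90.8 (-0.25). Such genes were concentrated in a subcluster of 96 cells, described at the end, where *Ifit1* had 180 CPM beside 4.89 in all other Ogn and Aspn cells. There *Isg15* had 562 CPM beside 53.7, and *Ifi44* 144 beside 10.8. This subcluster held 8.22% of UT (5.66 to 11.5%) and 6.20% of BUP-treated Ogn and Aspn cells (4.82 to 7.84%), with overlapping intervals. Its part in the ratios was not tested. Of 15 interferon gamma response genes, 9 were below and 0 above, also with a median of -0.29. The GTPase *Gbp2* had 466 and 334 CPM (-0.48) and *Cd274*, which encodes the checkpoint ligand PD-L1, 28.5 and 19.3 (-0.56). *Cd274* reached 20 CPM in UT alone. After thinning it was present in 5.88% of UT (3.72 to 8.77%) and 3.63% of BUP-treated cells (2.58 to 4.95%), with overlapping intervals. The thinned shares were 2.11% and 2.43% in Krt20 tumor cells and 38.5% and 32.3% in immune cells. What immune RNA added to *Cd274* here was not tested.

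MHC class I genes followed with smaller ratios. Of 14, 13 had intervals below 0, with a median of -0.20, at -0.44 for the proteasome subunit *Psmb8*, -0.22 for *B2m* and -0.16 for *H2-K1*. These genes are abundant, with 65118 UT and 165038 BUP UMIs in all, so small ratios give intervals that leave out 0. Their sum was also lower in BUP in Krt20 tumor cells (7982 and 7738 CPM), collagen-high cells (8924 and 8480) and immune cells (11520 and 10622). Of 10 hypoxia and glycolysis genes, 7 were below and 0 above (median -0.26). *Pgk1* had 509 and 353 CPM (-0.53), *Ndrg1* 159 and 110 (-0.52) and *Bnip3* 123 and 87.5 (-0.49). The sum of this list was lower in BUP in every set, at 3109 and 2577 CPM here and 4981 and 4045 in Krt20 tumor cells. Collagen-high cells had 3242 and 2853 CPM, and immune cells 4517 and 3902.

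Other lists differed in how far they lay from the median of all genes. Of 13 mesenchymal genes 4 had intervals above 0 and 4 below (median -0.09), of 10 immediate early genes also 4 and 4 (-0.03, or 0.04 when the ratios were scaled to the median gene), and of 9 cell cycle inhibitors and p53 targets 1 and 3 (-0.01). Of 5 heat shock genes, 4 were above 0 and 0 below, with a median of 0.21. Of 7 S phase genes, 4 were below (median -0.24), and while all 7 reached 20 CPM in UT, 5 did so in BUP. Both countable G2 and M phase genes were below (median -0.69). They reached 20 CPM in UT alone, so the limit fixed their direction and nothing is read from it.

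**Figure D5:**
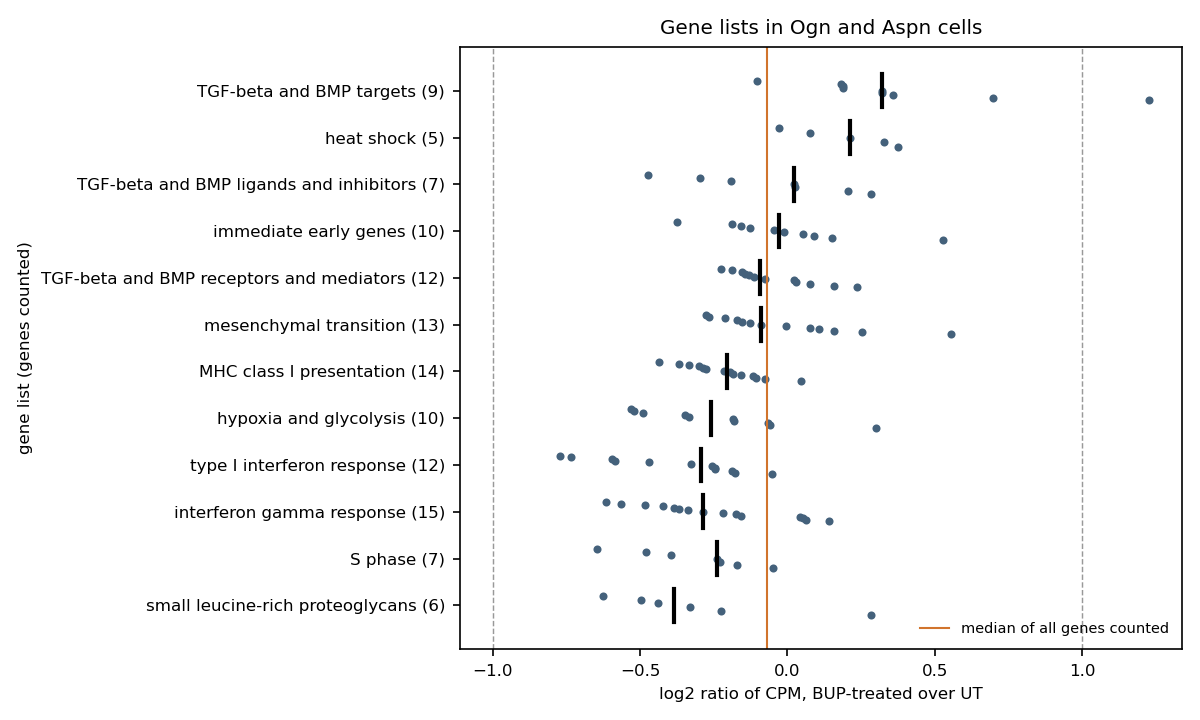
Log2 ratio of BUP-treated over UT (horizontal axis) of each countable gene of 12 lists (vertical axis, with the number of genes), in Ogn and Aspn cells. Black bars are list medians, the orange line is the median of all 6740 genes and dashed lines mark 2-fold. The TGF-beta and BMP targets (median 0.32) lie to the right of the line, and the interferon (both -0.29) and hypoxia (-0.26) lists to its left. The small leucine-rich proteoglycan list holds *Ogn*, *Aspn* and *Omd*, which chose the cells, so nothing is read from its place.

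Of 9 countable cytokine and chemokine genes, 5 had intervals below 0 and 1 above, with a median log2 ratio of -0.21. Over all genes 22.7% were below and 8.16% above. The gene above was *Cxcl1*, with 844 CPM in UT and 1139 in BUP-treated Ogn and Aspn cells (log2 ratio 0.43). Its thinned shares were 49.5% (44.3 to 54.7%) and 56.5% (53.5 to 59.6%), with overlapping intervals. In Krt20 tumor cells they were 28.7% and 38.6%. *Ccl2*, which attracts monocytes, had 587 and 356 (-0.72), and *Ccl7*, which reached 20 CPM in UT alone, 35.8 and 18.6 (-0.95). Few cells carried much of both, since 5 UT cells held 38.5% of the UT UMIs of *Ccl2* and 51.0% of those of *Ccl7*. The share of cells with a *Ccl2* UMI was 49.3% in UT and 36.9% in BUP, and after thinning 20.3% (16.4 to 24.8%) and 18.0% (15.7 to 20.4%), with overlapping intervals. In immune cells *Ccl2* had 2850 and 1943 CPM and was lower in BUP too, and what immune RNA added to its level here was not tested. *Csf1*, the macrophage growth factor, had 226 and 221 CPM, and *Il34*, which binds the same receptor, 55.1 and 46.5.

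Genes for acetylcholine receptors and for voltage-gated sodium channels, which bupivacaine blocks, were close to 0. The study also names potassium channels as blocked by bupivacaine, and their genes were not looked up here. Of the 21 acetylcholine receptor genes, none was abundant enough to count, and 18 had no UMI in UT and 15 none in BUP. *Chrnb1*, a muscle-type receptor subunit, gave 10.7 and 9.14 CPM of their sum of 11.8 and 9.92. The 14 voltage-gated sodium channel genes summed to 3.58 and 4.39 CPM, and none was abundant enough to count. *Chat*, which makes acetylcholine, had no UMI, and *Ache*, which breaks it down, had 0.34 and 0.42 CPM. Low RNA counts say nothing of the proteins. By flow cytometry the study reported the receptor proteins CHRM3, CHRM5 and CHRNA7 in cancer cells of CT26 tumors.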

How the data were processed

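Live cells of CT26 tumors were profiled with the 10x 5′ v2 chemistry in 1 UT and 1 BUP library, and the deposited values are raw UMI counts per gene and barcode, which the authors made with Cell Ranger 8.0.1 on GRCm39 according to the submitters' processing notes. Groups came from the treatment labels. The cells, gene lists and settings were chosen with earlier results of these data known.

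Counts were summed over the cells of a set in each library and divided by their total (CPM). Sums carried exact Poisson intervals, log2 ratios exact intervals conditional on the summed counts, and shares exact Clopper-Pearson intervals, all at 95%. A count of 0 was taken to allow 3 counts. Genes were counted if they reached 200 UMIs in all and 20 CPM in 1 of the sets compared. Of the 33696 gene IDs, 33185 matched GENCODE M39. Subclusters came from Leiden clustering in scanpy 1.11.5 with igraph 0.11.9, and sums and figures from scipy 1.17.1, pandas 2.3.3, numpy 2.4.6 and matplotlib 3.10.9 under Python 3.11.15. The steps were tested on simulated data.

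Named genes for BUP over UT were the 12 highest and 12 lowest log2 ratios among countable genes with a level above that of immune cells and under 20% of UMIs in 5 cells. Against other sets they were the 12 highest and 12 lowest by the smaller ratio of both libraries with the same sign, and for likeness to *Ogn* the 6 highest correlations. Genes of the lists could also be named. Doublets were not removed, since Scrublet marked 0.447% of UT and 2.33% of BUP-treated cells and so did not work for UT. The 6% of cells with the highest scores were left out as an alternative, besides other limits of the rule, scalings, filters and thinned cells.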

Additional observations from a re-analysis of the deposited data

Results flagged for a closer look

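Among the 24 genes named for BUP over UT, *Dcn* was the only one whose log2 ratio had the opposite sign in Krt20 tumor cells by at least 0.5 in both sets. The ratio was -0.63 in Ogn and Aspn cells and 0.54 in Krt20 tumor cells. With 1 library per group, the difference between these ratios was not tested. *Dcn* had 1405 CPM in UT and 911 in BUP-treated Ogn and Aspn cells, and 235 and 343 in Krt20 tumor cells.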

How the results depend on the processing

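No paired analysis was possible because each group had 1 library. The median log2 ratio of the immediate early genes turned from -0.03, with 4 of 10 above 0, to 0.04, with 6 of 10, under median ratio scaling. None of the medians of the other 8 lists recomputed changed its sign. Of the 360 values of the 24 named genes under alternatives, 359 kept their direction, the exception being *Snx25* once. The log2 ratio of *Id3* ranged from 1.12 to 1.31.

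The share of Ogn and Aspn cells was 4.41% in UT and 12.01% in BUP with 8 or more marker UMIs. In BUP it was 17.2% with 2 or more, 16.6% with 2 or more per 10000 UMIs, 14.5% with no mitochondrial limit and 14.2% in thinned cells. Genes 2-fold higher and lower in BUP numbered 1 and 0 in thinned cells, 2 and 1 with at least 1000 UMIs per gene, and 33 and 96 with at least 50 UMIs and no CPM limit. Lower genes numbered 11 by mean level per cell, 16 with the marker limit scaled by depth, 4 without top doublet scores and 3 without the subcluster with immune RNA, and higher genes 2 without the 5 cells richest in hemoglobin (the last 2 chosen after seeing the data).

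Of list genes, those below 0 in thinned cells were 5 of 6 for hypoxia, 4 of 4 for type I interferon, 3 of 5 for interferon gamma and 0 of 0 for S phase. With at least 1000 UMIs they were 5 of 5, 7 of 11 and 2 of 2 for type I interferon, interferon gamma and S phase. With at least 50 UMIs they were 19 of 19 for type I interferon, 14 of 14 for S phase and 8 of 9 for proteoglycans, and without cycling cells 4 of 5 for S phase.

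Against Krt20 tumor cells, 144 genes were higher and 121 lower in thinned cells, and 178 and 154 without cycling cells (added after seeing the data). Against collagen-high cells, 71 were lower in thinned cells. Fewer genes could be counted after thinning. The cycling share in UT was 23.1% unthinned, 10.2% and 1.07% with at least 1 or 3 UMIs, 6.68% with S phase genes added and 0.952% with 8 or more marker UMIs. In BUP it was 15.7% unthinned, 8.21% with at least 1 UMI, 4.58% with S phase genes added and 0.615% with 8 or more marker UMIs. The cause of these moves was not tested unless stated. With 1 library per group, no spread between animals is known.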

Other observations

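The Ogn and Aspn cells were not uniform. Clustering of the 1425 cells gave 9 subclusters of 14 to 471 cells, each with cells of both libraries. A resolution of 1.0 gave 12 and 30 principal components gave 7, so the number of subclusters is not fixed. The genes that lead them describe the clustering and are no finding, and each sum is a level over the cells of both libraries.

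The largest subcluster (471 cells) was led by the glutamate transporter *Slc1a2*, the retinoic acid receptor *Rarb* and the prostaglandin synthase *Ptgds*. A subcluster of 219 cells was led by the hemoglobin genes *Hbb-bs*, *Hba-a2* and *Hba-a1*, whose UMIs over all Ogn and Aspn cells came mostly from 5 BUP-treated cells, followed by hypoxia genes such as *P4ha2*, *Ero1a* and *Bnip3*, besides *Saa3* and *Grem1*, and held 1083 CPM of *Ccl2*. In 96 cells interferon genes such as *Ifit1*, *Rsad2* and *Isg15* led, with 1561 CPM of *Gbp2*, while the other subclusters had between 41.4 and 394 CPM. *Aspn* and *Dcn* were highest in 54 cells led by *Pcdh7*, *Col6a2* and *Dkk2*, at 1066 and 2944 CPM.

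Cycling genes such as *Pclaf*, *Birc5* and *Rrm2* led a subcluster of 56 cells. Its median depth was 24507 UMIs, and *Ogn* was at 212 CPM there, the lowest of the 9. In 242 cells *Lama2* and *Igf2r* led, and *Id3* was at 284 CPM, the highest of the 9. This subcluster held 30 of the UT cells and 212 of the BUP-treated cells, and *Id3* was at 134 CPM in the first and 304 in the second. The smallest subcluster, 14 cells, was led by genes of neutrophils and antigen-presenting cells (*S100a9*, *Il1b*, *H2-Aa*), and its Y-linked sum was 20.8 CPM beside at most 1.10 in the other 8. A subcluster of 34 cells led by *Xkr4*, *Efna5* and *Kalrn* had 903 CPM of *Prrx1* and 1433 of *Tgfbr3*, with 5.05% mitochondrial UMIs.

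*Id3* was higher in BUP than in UT in 8 of the 9 subclusters, with log2 ratios from 0.16 to 1.79. The exception was the subcluster of 14 cells, at -0.17. *Id1* had log2 ratios of both signs over the subclusters, from -1.55 to 1.95. *Dcn* was lower in BUP in 7 of the 9, with log2 ratios from -0.95 to -0.11, and at 0.04 and 0.12 in the cycling cells and the 14 cells. These subclusters share their cells' libraries and are not replicates.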
